A study of Homo sapiens with 6 samples.

Results

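The genes described here are 10 genes of antigen presentation by MHC class II: the invariant chain CD74, the classical chains HLA-DRA, HLA-DRB1, HLA-DPA1, HLA-DPB1, HLA-DQA1 and HLA-DQB1, the peptide editor chains HLA-DMA and HLA-DMB, and the coactivator CIITA. They were chosen by name, with their difference between the groups already known from these data, out of 56638 gene symbols in the deposited tables. All transcripts that the authors' annotation gives to a symbol were added up, which joined 454 transcripts and 60 Ensembl gene IDs into the 10 genes. All 10 were found, and 8 reached a mean of at least 1 TPM. TPM is an abundance per transcript length that sums to 1000000 in each library, so it can be compared between genes. HLA-DQB1 and HLA-DMB stayed below that level.

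The study compared KMS27 cells, an established human line of malignant plasma cells, in 2 groups of 3 libraries each. One group carried HA-TAZ, the coactivator TAZ of the Hippo pathway with an HA peptide tag, and the treatment label of the other reads wild type. The wild type titles carry the letters HA as well, and whether those cells received a construct is not stated, nor are the promoter or the number of clones behind HA-TAZ. The 3 control columns bear a name, scr, that no label explains, and they were assigned to wild type because the HA-TAZ columns were accounted for. The libraries are called HA-TAZ 1 to 3 and control a to c, and 3 values given for a group stand in that order. No label says that libraries of a group came from separate cultures, so the spread between them may be technical.

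MHC class II molecules are pairs of an alpha and a beta chain that display peptides from endosomes to CD4+ T cells. CD74 binds newly made pairs, fills their groove and guides them to endosomes, where it is cut down to a short peptide that HLA-DM exchanges for others. Class II genes and CD74 share a promoter module bound by the RFX complex, CREB family factors and NF-Y, on which CIITA is recruited without binding DNA itself. CIITA is on in B cells and dendritic cells and is induced by interferon gamma in many other cells, while it is silenced by PRDM1 (BLIMP-1) when B cells become plasma cells.

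The promoter module of class II genes and CD74 is printed as background, apart from the rule that chose the 10 genes. Its letters were found in 5 of the 8 genes with a sequence, by the search described next. RefSeq promoter windows (GRCh38.p14, 250 bases before to 50 bases after a gene's start) were at hand for 8 of the 10 genes, with 2 windows for HLA-DPA1, and none was matched for HLA-DRA or CIITA. They were searched on both strands for the letters CNAGNNAC, a reduced form of the X box, and for ATTGG or its complement CCAAT, the Y box, 10 to 50 bases apart. The X letters were settled after these sequences had been read. Each line gives 1 stretch 5′ to 3′ on the gene's strand, with X and Y matches in capitals.
CD74: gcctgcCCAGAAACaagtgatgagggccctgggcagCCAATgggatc
HLA-DRB1: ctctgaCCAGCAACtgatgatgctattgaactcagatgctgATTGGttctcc
HLA-DQA1: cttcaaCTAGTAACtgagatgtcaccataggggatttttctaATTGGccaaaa
HLA-DQB1: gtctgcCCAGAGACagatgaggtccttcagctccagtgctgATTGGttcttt
HLA-DMA: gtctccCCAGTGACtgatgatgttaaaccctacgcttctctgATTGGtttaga

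The CD74 stretch lies at chr5:150412953-150412999 on the minus strand. Those of the HLA genes lie on chromosome 6: HLA-DRB1 at chr6:32589884-32589935 (minus), HLA-DQA1 at chr6:32637296-32637348 (plus), HLA-DQB1 at chr6:32666735-32666786 (minus) and HLA-DMA at chr6:32953166-32953218 (minus). All 5 lie upstream of the start that the table gives. In each, the X letters precede the Y letters by 22 to 28 bases, and CD74 has the Y box on the other strand from the HLA genes. The 4 HLA stretches share the Y letters ATTGG, while no 2 of the 5 genes have the same X letters. The pair was not found in the windows of HLA-DPA1, HLA-DPB1 and HLA-DMB, which says only that the letters do not occur there at this spacing. The HLA-DMB window holds 1 match of each kind, 1 window of HLA-DPA1 holds the X letters and that of HLA-DPB1 the Y letters. Of all 35116 promoter windows, 39.3% hold the X letters, 34.6% the Y letters and 2.90% the pair at this spacing. A match of letters is a description and not a measured site.

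Levels below are scaled TPM, the deposited TPM divided by a median-of-ratios factor per library (0.864 to 0.966 for HA-TAZ and 1.06 to 1.21 for controls). WWTR1, which encodes TAZ, was at 316 to 339 scaled TPM with HA-TAZ and 1.60 to 2.22 without, as the labels have it. Differences are log2 fold changes of scaled TPM + 1 with their standard error (SE), which understate changes of genes near 1 TPM. Plasma cell markers, 8 of 9 at a mean of at least 1 TPM, summed to 619 to 649 scaled TPM with HA-TAZ and 614 to 639 without, with overlap (551 to 599 and 653 to 743 as deposited). Within that list SLAMF7 rose by 0.96 and CD38 fell by 0.60 (log2, limma with Benjamini-Hochberg, adjusted p = 0.0106 and 0.0200). Of 7 B cell markers, which mark cells that make class II molecules, MS4A1, PAX5, CD22 and CD79A were among those below 1 TPM in every library. The list summed to 17.1 to 17.7 scaled TPM with HA-TAZ and 20.1 to 21.3 without, nearly all from BACH2 and CR2. These 2 went opposite ways. BACH2 was called lower (limma, Benjamini-Hochberg adjusted p under 0.05). CR2 was higher at an unadjusted p under 0.05 (limma) but did not pass, and turned negative with TPM as deposited. Monocyte and macrophage markers summed to 13.5 to 16.4 and 17.3 to 24.7 scaled TPM, with CD14, LYZ and FCGR3A below 1 TPM, and the 6 dendritic cell markers to 1.57 to 2.05 and 1.26 to 1.69, with CD1C at 0. The T cell list summed to 1.69 to 2.16 and 2.57 to 2.81 scaled TPM and the stromal and epithelial list to 6.05 to 7.30 and 6.996 to 8.29. None of these sums of other cell types was higher in all HA-TAZ libraries than in all controls, on the scaled or the deposited values. Single markers could differ from their list. MS4A1 was at 0.101, 0.205 and 0.0686 scaled TPM with HA-TAZ and at 0.0101, 0.0174 and 0 without, and the dendritic cell marker ITGAX at 1.10, 0.870 and 1.21 against 0.588, 0.582 and 0.515. Both were named after their values were seen, and their part in the results below was not tested. In bulk RNA, a change in the share of cells that express a gene and a change of RNA per cell cannot be told apart.

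CD74, both HLA-DR chains, both HLA-DP chains and CIITA were higher in every HA-TAZ library than in every control, by 1.91-fold for CD74 to 3.68-fold for HLA-DRA. HLA-DQA1 was the exception among the 10, since its groups overlapped. Of the 8 genes that could be tested, 6 passed the threshold as higher (limma, Benjamini-Hochberg adjusted p under 0.05 over 21011 symbols) and 0 as lower, where 5.49% of all tested symbols were called higher and 3.03% lower, 8.52% in all. On the scaled values, 9 of the 10 genes had every HA-TAZ library above every control, where 20.4% of all tested symbols were higher and 18.6% lower without overlap. With TPM as deposited it was 7 of the 10, where 4.21% of all tested symbols were higher without overlap. The 10 include HLA-DQB1 and HLA-DMB, which lay below the filter and were not among the tested symbols. The genes were picked from this contrast, so these counts describe the choice and nothing is read from them. The median log2 fold change was 0.81 over all 10 genes and −0.02 over all tested symbols. With TPM as deposited the same 6 were called, beside a median of −0.27 over all tested symbols.

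**Figure D1:**
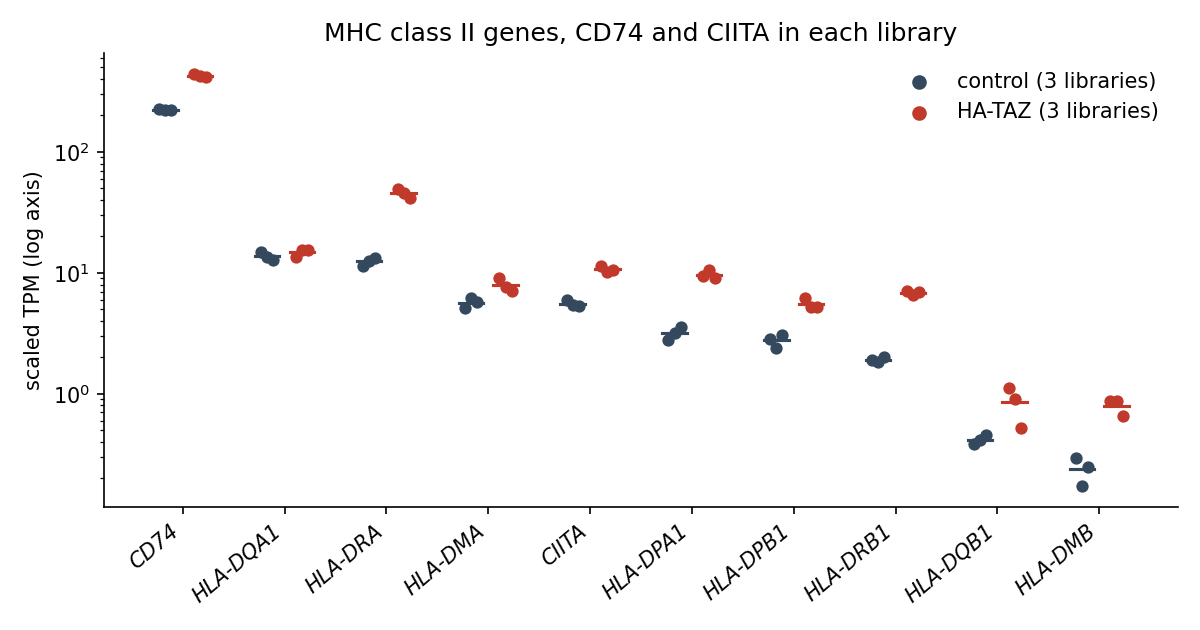
Scaled TPM (log axis) of the 10 genes, with 1 point per library, control libraries beside HA-TAZ libraries and bars at the group means. CD74 lies far above the other genes in both groups, and the groups are apart for 9 genes and overlap for HLA-DQA1.

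CD74 was the most abundant of the 10 genes by far. It was at 444, 422 and 415 scaled TPM in HA-TAZ libraries, against 228, 221 and 220.5 in controls. All HA-TAZ libraries were high, and the libraries of each group lay close together. The means were 427 ± 14.9 and 223 ± 4.19 scaled TPM (SD, n = 3 each), a ratio of 1.91 and a log2 fold change of 0.93 (SE 0.046). Its protein-coding transcripts held 97.5% of its TPM. The transcript ENST00000353334.6, with 78.1% of the gene's TPM, was at 332 and 175 scaled TPM, and ENST00000377795.3, with 14.6%, at 63.0 and 32.4. The 2 transcripts thus kept nearly the same proportion to each other in both groups. In the authors' deposited table their effects on the natural log scale were 0.652 (SE 0.0446) and 0.676 (SE 0.0792). CD74 has 1 gene ID, so no copies split its reads.

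HLA-DRA encodes the alpha chain of HLA-DR and was the second most abundant of the genes in HA-TAZ libraries. It was at 49.7, 45.3 and 41.8 scaled TPM in HA-TAZ libraries, against 11.4, 12.4 and 13.4 in controls. The lowest HA-TAZ library was more than 3-fold above the highest control. The means were 45.6 ± 3.96 and 12.4 ± 0.990 scaled TPM (SD, n = 3 each), a ratio of 3.68 and a log2 fold change of 1.80 (SE 0.087). HLA-DRB1, the beta chain, was at 7.08, 6.61 and 6.94 scaled TPM in HA-TAZ libraries and at 1.89, 1.83 and 2.00 in controls. Its means were 6.88 ± 0.242 and 1.91 ± 0.0860 scaled TPM (SD, n = 3 each), a ratio of 3.60 and a log2 fold change of 1.44 (SE 0.080). The ratio of HLA-DRA to HLA-DRB1 was 6.64 ± 0.537 in HA-TAZ libraries and 6.50 ± 0.401 in controls (SD, n = 3 each), with overlapping ranges. The DR chains were therefore higher in the same proportion within the spread of the libraries. HLA-DRB genes are close paralogues of varying sequence between people, so the split of reads among them is uncertain.

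The reads of HLA-DRA were spread over 7 gene IDs, which stand for the gene on the primary chromosome and on alternative haplotypes of the MHC. The largest held 22.2% of its TPM, and 3 of the 7 had the same value in each library. All but 1 of the 7 IDs had means between 5.86 and 10.5 scaled TPM in HA-TAZ libraries and between 1.68 and 2.58 in controls. Their ratios of means ran from 3.49 to 4.16, and the remaining one, with 0.325% of the TPM, had 1.59. Reads that match several IDs are split among them, so these similar ratios are not independent of each other. In the authors' deposited table, the transcript ENST00000383127.2 had an effect of 1.29 (SE 0.123) on the natural log scale and ENST00000374982.5 one of 1.72 (SE 0.289). ENST00000442960.2 had 2.62 with an SE of 1.99 in the authors' deposited table, the least precise of the 3. For HLA-DRB1, ENST00000360004.5 held 65.7% of the TPM and had an effect of 1.32 (SE 0.138) in the authors' deposited table. The copies ENST00000328980.7 and ENST00000399450.2, each with 14.1% and the same values, had 1.73 (SE 0.245) in the authors' deposited table.

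**Figure D2:**
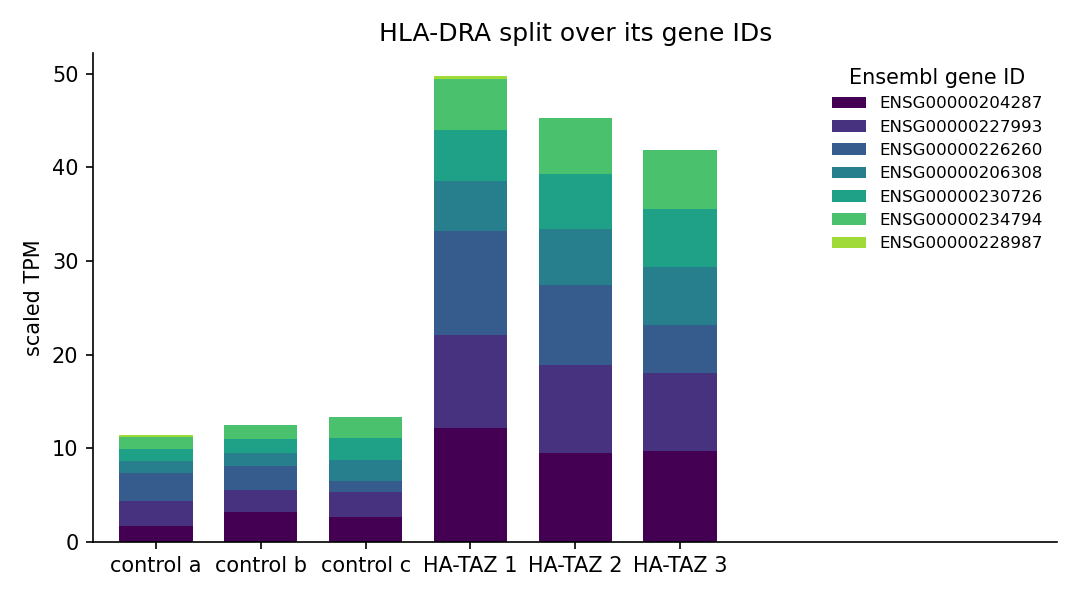
Scaled TPM of HLA-DRA in each library, with the bar of a library stacked by Ensembl gene ID. The total is 41.8 to 49.7 with HA-TAZ and 11.4 to 13.4 without. The IDs can share reads, so their parts of a bar are not independent.

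HLA-DPA1 and HLA-DPB1 form HLA-DP. HLA-DPA1 was at 9.36, 10.5 and 9.12 scaled TPM in HA-TAZ libraries, against 2.80, 3.18 and 3.59 in controls. Its means were 9.67 ± 0.764 and 3.19 ± 0.396 scaled TPM (SD, n = 3 each), a ratio of 3.03 and a log2 fold change of 1.35 (SE 0.103). HLA-DPB1 was at 6.16, 5.18 and 5.23 scaled TPM in the HA-TAZ libraries and at 2.84, 2.39 and 3.07 in the controls. All HA-TAZ libraries were high for both chains, but in the summed TPM by a larger factor for the alpha chain. The means of HLA-DPB1 were 5.52 ± 0.555 and 2.77 ± 0.346 scaled TPM (SD, n = 3 each), a ratio of 2.00 and a log2 fold change of 0.79 (SE 0.112). The ratio of HLA-DPA1 to HLA-DPB1 was 1.52, 2.04 and 1.74 in HA-TAZ libraries and 0.985, 1.33 and 1.17 in controls, with no overlap. For HLA-DPB1, ENST00000383102.2 held 61.6% of the TPM and 205 of the 228 estimated counts that the authors' deposited table implies. Its scaled means had a ratio of 2.84, nearer to that of HLA-DPA1 than the sum was. It had an effect of 1.09 (SE 0.193) in the authors' deposited table. ENST00000478786.1, with 13.6% of the TPM on 18 estimated counts, went the other way. It was at 0.332, 0.331 and 0.151 scaled TPM in HA-TAZ libraries and 0.767, 0.625 and 0.901 in controls. Its effect in the authors' deposited table was −1.04 with an SE of 0.958. HLA-DPA1 had 8 gene IDs, the largest with 14.2% of its TPM, so its sum rests on several near-identical copies.

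HLA-DQA1, the alpha chain of HLA-DQ, did not differ in its sum beyond the spread of the libraries. It was at 13.5, 15.5 and 15.4 scaled TPM in HA-TAZ libraries and at 14.9, 13.5 and 12.8 in controls. The means were 14.8 ± 1.13 and 13.7 ± 1.07 scaled TPM (SD, n = 3 each). The log2 fold change was 0.10 (SE 0.084) and turned to −0.18 with TPM as deposited. Its transcripts moved in opposite directions. ENST00000474698.1 and ENST00000497426.1, which hold 67.6% of its TPM, were lower in every HA-TAZ library. Together they were at 6.47, 7.85 and 8.50 scaled TPM in HA-TAZ libraries and at 12.3, 10.9 and 10.6 in controls. All other HLA-DQA1 transcripts together were at 7.24 ± 0.398 and 2.49 ± 0.240 scaled TPM (SD, n = 3 each), a ratio of 2.91. The primary assembly annotation of GENCODE release 29 calls 5 HLA-DQA1 transcripts protein-coding. They were at 5.45, 5.70 and 5.26 in HA-TAZ libraries and at 0.828, 0.944 and 0.578 in controls, a ratio of means of 6.99. Part of that ratio rests on few reads. ENST00000496318.1, named after its values were seen, averaged 1.99 and 0.0296 scaled TPM on 7.88 estimated counts. ENST00000343139.5 averaged 2.43 and 0.445 on 96.7, a ratio of 5.45, with counts as implied by the authors' deposited table. The retained-intron transcript ENST00000460633.1 was at 0.992 ± 0.0627 and 0.597 ± 0.0883 scaled TPM (SD, n = 3 each). This split was made after the values were seen, and it was not tested.

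The authors' deposited table gave the same directions for these transcripts. The effects there were −0.366 (SE 0.108) for ENST00000474698.1 and −0.403 (SE 0.0726) for ENST00000497426.1 on the natural log scale. ENST00000343139.5, a protein-coding transcript that holds less of the TPM and was picked after its values were seen, had 1.72 (SE 0.193) in the authors' deposited table. The 2 lower transcripts belong to the gene IDs ENSG00000228284 and ENSG00000236418, while the protein-coding ones belong to ENSG00000196735. Neither of the lower transcripts is in the primary assembly annotation of GENCODE release 29, which leaves out alternative haplotypes. Their type is therefore not given. Together they took 91.9% of the estimated counts that the means in the authors' deposited table imply for HLA-DQA1, and ENSG00000196735 took 8.06%. The sum for HLA-DQA1 therefore depends on how these transcripts are weighted. What sequence these reads come from was not tested.

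**Figure D3:**
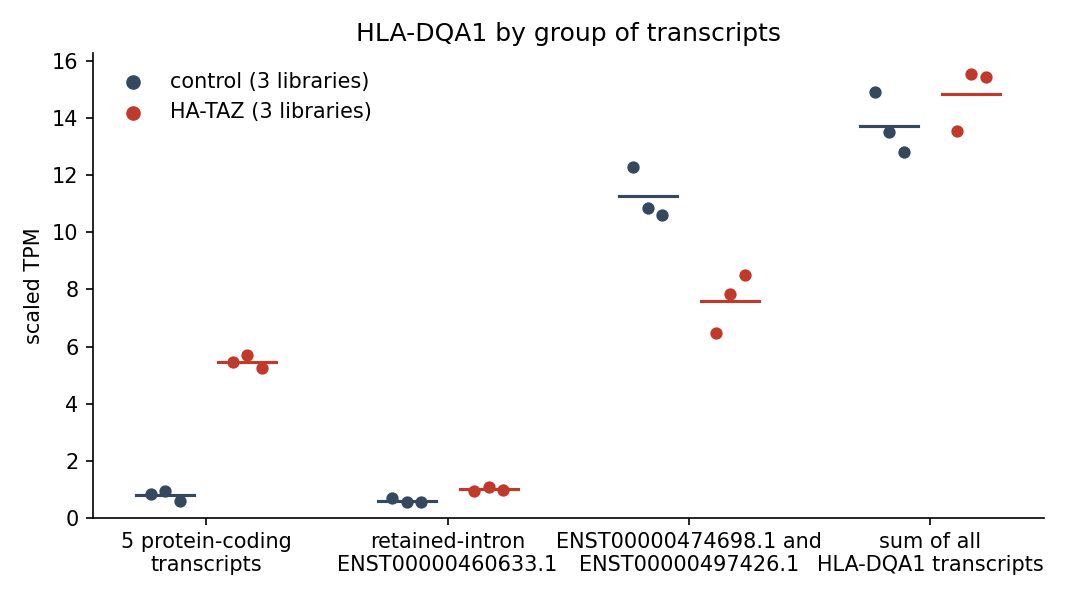
Scaled TPM of HLA-DQA1 in each library, for groups of its transcripts and for the sum, with bars at the group means. The 2 transcripts with most of the TPM are lower in HA-TAZ libraries, the 5 protein-coding ones are higher (5.26 to 5.70 against 0.578 to 0.944), and the sum overlaps. Part of the protein-coding level rests on few estimated counts.

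HLA-DQB1, the beta chain of HLA-DQ, was low. It was at 1.11, 0.901 and 0.526 scaled TPM in HA-TAZ libraries and at 0.381, 0.416 and 0.455 in controls. HA-TAZ 3 was only slightly above the highest control, and with TPM as deposited the groups overlapped. The means were 0.847 ± 0.298 and 0.417 ± 0.0372 scaled TPM (SD, n = 3 each). Its transcript with most TPM, the protein-coding ENST00000374943.4 (38.9%), was at 0.366 and 0.135 scaled TPM on average, without overlap. ENST00000460185.1 (19.3%) had means of 0.0885 and 0.145 and ENST00000475182.1 (12.9%) of 0.0787 in both groups, with overlap for each. Of its 44 transcripts, 3 have statistics in the authors' deposited table. Their means imply 57.5 estimated counts for these 3, a counting error of about 13.2% in a library.

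HLA-DMA and HLA-DMB form HLA-DM, which removes the CD74 remnant from the groove. HLA-DMA was at 9.00, 7.59 and 7.08 scaled TPM in HA-TAZ libraries and at 5.12, 6.16 and 5.72 in controls. The groups were apart on this scale and overlapped with TPM as deposited. Its means were 7.89 ± 0.994 and 5.67 ± 0.521 scaled TPM (SD, n = 3 each), a ratio of 1.39 and a log2 fold change of 0.41 (SE 0.111). HLA-DMB was at 0.865, 0.870 and 0.651 scaled TPM in HA-TAZ libraries and at 0.293, 0.172 and 0.250 in controls. All HA-TAZ libraries were above the controls, at a level near the lowest of the genes. Its means were 0.795 ± 0.125 and 0.238 ± 0.0610 scaled TPM (SD, n = 3 each), and the authors' deposited table gave statistics for none of its transcripts. The ratio of HLA-DMA to HLA-DMB was 10.4, 8.72 and 10.9 in HA-TAZ libraries and 17.5, 35.7 and 22.9 in controls. This ratio rests on HLA-DMB values below 1 TPM in every library. Transcripts outside the primary assembly annotation of GENCODE release 29, and so without a type here, held 97.6% of the HLA-DMB TPM. That annotation leaves out copies on alternative haplotypes. The HLA-DMB transcripts it calls protein-coding were at 0 in HA-TAZ libraries and averaged 0.0177 scaled TPM in controls. HLA-DMA had 8 gene IDs, 5 of them with the same value in each library.

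CIITA, the coactivator on which class II transcription depends, was at 11.4, 10.1 and 10.5 scaled TPM in HA-TAZ libraries. In controls it was at 5.91, 5.43 and 5.32. The groups were apart, and the controls were far from 0. The means were 10.7 ± 0.640 and 5.55 ± 0.314 scaled TPM (SD, n = 3 each), a ratio of 1.92 and a log2 fold change of 0.83 (SE 0.076). The ratio was close to that of CD74 (1.91) and lower than those of the DR chains. ENST00000324288.8, a protein-coding transcript, held 19.7% of the TPM but 962 of the 1247 estimated counts that the authors' deposited table implies. It was at 2.00, 1.80 and 2.07 scaled TPM in HA-TAZ libraries and at 1.17, 1.24 and 1.25 in controls. Its effect in the authors' deposited table was 0.487 (SE 0.0813) on the natural log scale. The protein-coding transcripts of CIITA together were at 2.62 and 1.78 scaled TPM, a ratio of 1.48, which is lower than that of the whole gene. The transcript with the largest share of TPM, 27.9%, was ENST00000571545.1, which is not protein-coding in GENCODE release 29 and rests on 52.6 estimated counts. It was at 3.85, 1.85 and 2.96 scaled TPM in HA-TAZ libraries and 1.45, 1.65 and 1.88 in controls, with overlap. ENST00000572665.1 (13.9%) overlapped as well, while ENST00000537380.1 (10.6%) was at 1.24, 1.85 and 1.28 against 0.0729, 0.344 and 0.547, without overlap.

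**Figure D4:**
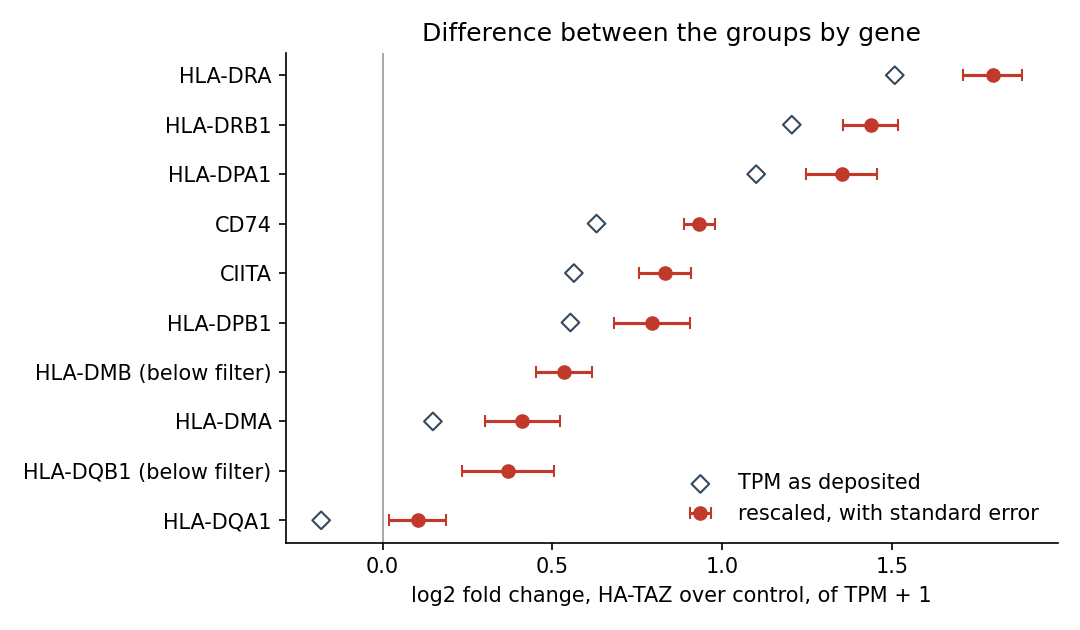
Log2 fold change of each gene, HA-TAZ over control, of scaled TPM + 1 with its standard error (filled points) and of deposited TPM + 1 (open diamonds). HLA-DRA, HLA-DRB1 and HLA-DPA1 are farthest from 0, HLA-DQA1 lies on both sides of 0, and HLA-DMB and HLA-DQB1, below the filter, have no diamond.

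The order of levels differed between the groups. In controls CD74 was followed by HLA-DQA1 and HLA-DRA, whose ranges of 12.8 to 14.9 and 11.4 to 13.4 scaled TPM overlapped. HLA-DMA and CIITA came next with overlapping ranges, then HLA-DPA1 and HLA-DPB1, again with overlap. HLA-DRB1, HLA-DQB1 and HLA-DMB were the lowest, each apart from its neighbour. In HA-TAZ libraries HLA-DRA stood clear of HLA-DQA1, at 41.8 to 49.7 against 13.5 to 15.5 scaled TPM. CIITA and HLA-DPA1 overlapped below them, followed by HLA-DMA and HLA-DRB1, whose lowest and highest values both round to 7.08, and by HLA-DPB1, while HLA-DQB1 and HLA-DMB overlapped at the bottom. The ratio of CD74 to HLA-DRA was 9.39 ± 0.503 in HA-TAZ libraries and 18.1 ± 1.78 in controls (SD, n = 3 each). CD74 over the sum of the 6 classical chains was 5.13 ± 0.113 and 6.48 ± 0.217 (SD, n = 3 each). CD74 thus exceeded the chains it binds in both groups, by a smaller factor with HA-TAZ.

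Over the 89 transcripts of these genes with statistics in the authors' deposited table, 24 with a positive effect and 2 with a negative one had a q-value under 0.05. Across all transcripts with statistics in the authors' deposited table these shares were 4.08% and 1.6%. The 2 negative ones were the HLA-DQA1 transcripts named above. The 24 positive ones were 7 of HLA-DPA1, 5 of CD74, 4 of HLA-DQA1, 3 of HLA-DRB1, 2 each of HLA-DRA and CIITA and 1 of HLA-DPB1, all from the authors' deposited table. Copies of a transcript on several haplotypes count more than once in it. HLA-DMA had 24 transcripts with statistics in the authors' deposited table and none with a q-value under 0.05.

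The 6 libraries fall into 2 groups, so genes whose pattern is most like a gene of this set are genes that differ between the groups. By Pearson's r of log2(scaled TPM + 1) over the 6 libraries, CD74 was most like IFIT3 (0.9997), TRAF4 (0.9987), IFIT1 (0.9984), TRIB1 (0.9982) and WWTR1 (0.9982). HLA-DRA was most like RGS1 (0.9989), BHLHE40 (0.9987), PSMB9 (0.9987), UBD (0.9986) and MED10 (0.9982). CIITA was most like GBE1 (0.9983), STEAP1 (0.9982), CFL1 (0.9978), DUSP10 (0.9977) and PIM2 (0.9976). An r over 0.95 was reached by 762 symbols (3.63%) for CD74, 936 (4.46%) for HLA-DRA and 658 (3.13%) for CIITA, so such values are not particular to the genes named.

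The other genes of the pathway were taken from 5 lists chosen by function. Of their 43 tested genes, 13 rose and 0 fell (limma, Benjamini-Hochberg adjusted p under 0.05), next to 5.49% and 3.03% of all tested symbols. With TPM as deposited, 4 of the 43 rose (IRF1, IFI30, CD44 and HLA-DRB5) and 8 fell, JAK2 and MARCH1 among them. In that setting 265 of all 21011 tested symbols rose and 3428 fell. Of the 43, 13 turned negative with TPM as deposited, of which CTSD and USF1 had been called. For those that turned, the direction rests on the scaling between libraries, as does which of the 43 are called. IRF1 alone kept its call in all 6 fits that each left out 1 library, and IFI30 and CD44 each lost it only without HA-TAZ 1.

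Among factors that induce or repress CIITA, 4 of 14 tested genes rose and 0 fell, next to 5.49% and 3.03% of all tested symbols. The median log2 fold change of the 14 was 0.12. IRF1, which acts on the interferon-responsive CIITA promoter, was at 49.5, 44.5 and 48.7 scaled TPM in HA-TAZ libraries and at 22.0, 23.1 and 23.5 in controls. Its log2 fold change was 1.02 (SE 0.059; adjusted p = 0.00163 by limma with Benjamini-Hochberg), and the groups were far apart. IFNGR2, a receptor chain for interferon gamma, rose by 0.54 (adjusted p = 0.0272) and USF1 by 0.28 (0.0248, both log2, limma, Benjamini-Hochberg). Both calls were lost in all 6 fits on 5 libraries and with TPM as deposited, where USF1 was at −0.013. At the lower end, JAK2 had −0.31 (adjusted p = 0.0994 by limma with Benjamini-Hochberg). PRDM1 was named after its values were seen, for its role in silencing CIITA. It was at 95.6 ± 3.66 and 96.4 ± 1.82 scaled TPM (SD, n = 3 each), with overlap between the groups. With TPM as deposited PRDM1 was lower in every HA-TAZ library than in every control. Its log2 fold change there was −0.31 (adjusted p = 0.0516 by limma with Benjamini-Hochberg), beside a median of −0.27 over all tested symbols.

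Of the 8 factors that bind class II promoters, 2 rose and 0 fell, next to 5.49% and 3.03% of all tested symbols. The median log2 fold change of the 8 was 0.01. RFX5, a subunit of the RFX complex, was at 81.8 ± 4.07 and 64.9 ± 3.07 scaled TPM (SD, n = 3 each), a log2 fold change of 0.33 (adjusted p = 0.0325 by limma with Benjamini-Hochberg). NFYA, a subunit of NF-Y, had 0.34 (adjusted p = 0.0320 by limma with Benjamini-Hochberg). Both calls were lost in all 6 fits on 5 libraries, and with TPM as deposited the log2 fold changes were 0.03 and 0.05. RFXANK and RFXAP, the other RFX subunits, had 0.65 (adjusted p = 0.0802) and −0.14 (0.520, both limma, Benjamini-Hochberg).

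Of the other class II genes, only HLA-DRB5 and HLA-DOB reached a mean of 1 TPM. HLA-DRB5, a second DR beta chain, was at 1.73, 1.61 and 1.62 scaled TPM in HA-TAZ libraries and at 0.451, 0.596 and 0.627 in controls, a log2 fold change of 0.77 (SE 0.108; adjusted p = 0.0211 by limma with Benjamini-Hochberg). It was called in 1 of the 3 fits that left out a control, and fell below the filter in the 3 that left out an HA-TAZ library. It can share reads with HLA-DRB1. HLA-DOB, a chain of the HLA-DM inhibitor HLA-DO, had a log2 fold change of 0.15 and did not pass, and was at −0.06 with TPM as deposited.

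Among genes of loading and turnover, 5 of 15 tested rose and 0 fell, next to 5.49% and 3.03% of all tested symbols. The median log2 fold change of the 15 was 0.15. IFI30, the thiol reductase of endosomes, was at 84.7, 79.7 and 85.8 scaled TPM in HA-TAZ libraries and at 47.9, 55.6 and 54.1 in controls. Its log2 fold change was 0.66 (SE 0.069; adjusted p = 0.0101 by limma with Benjamini-Hochberg). SPPL2A, the membrane protease that clears the CD74 stub, rose by 0.39 (adjusted p = 0.0134) and CTSS, the cathepsin that trims CD74, by 0.36 (0.0234, both log2, limma, Benjamini-Hochberg). LAMP2 rose by 0.31 (adjusted p = 0.0441) and the protease CTSD by 0.29 (0.0320, both log2, limma, Benjamini-Hochberg), the latter at −0.0053 with TPM as deposited. MARCH1, a ligase that marks class II molecules for turnover, had −0.26 (adjusted p = 0.0789 by limma with Benjamini-Hochberg). Without a library, SPPL2A was called in 2 of 6 fits, CTSS in 1, and LAMP2 and CTSD in 0.

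CD74 at the cell surface also binds the cytokine MIF and signals with CD44. CD44 was at 38.6, 39.6 and 34.7 scaled TPM in HA-TAZ libraries and at 22.7, 23.4 and 21.5 in controls, a log2 fold change of 0.71 (SE 0.066; adjusted p = 0.00794 by limma with Benjamini-Hochberg). MIF was at 237 ± 19.3 and 181 ± 22.8 scaled TPM (SD, n = 3 each) and did not pass (log2 fold change 0.39, limma, Benjamini-Hochberg adjusted p = 0.0743). The chemokine receptor CXCR4 had the smallest difference of the 4 tested partners, 0.05, or −0.24 with TPM as deposited.

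**Figure D5:**
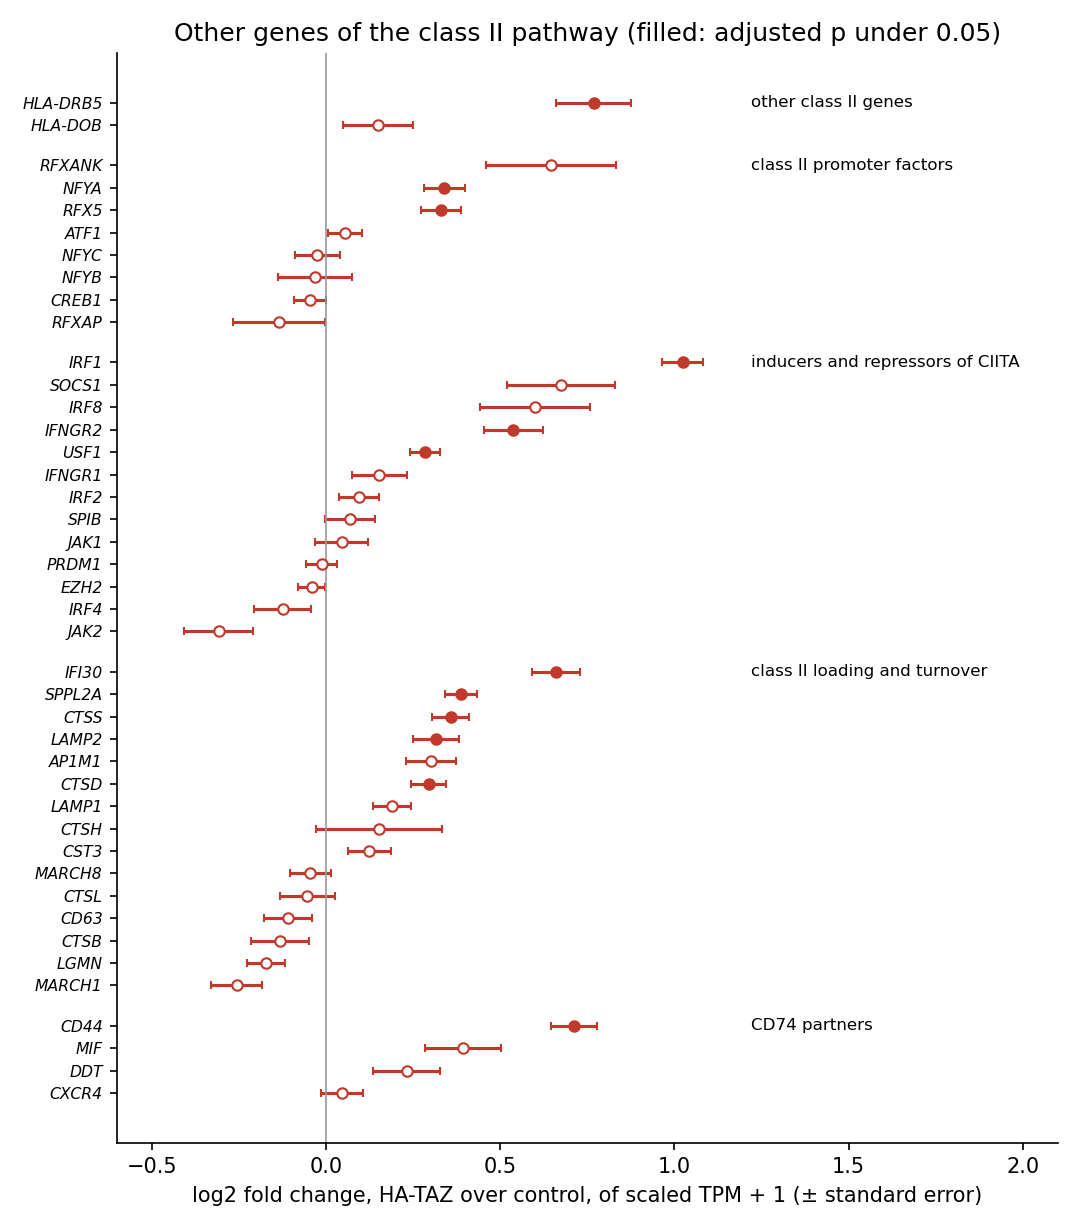
Log2 fold change of scaled TPM + 1 with its standard error for tested genes of the 5 lists, grouped by list, with filled points for an adjusted p under 0.05 (limma, Benjamini-Hochberg). All filled points lie above 0, with IRF1 the highest at 1.02.

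For comparison, 10 of 10 genes of MHC class I presentation were called higher (limma, Benjamini-Hochberg), where 5.49% of all tested symbols were. With TPM as deposited 4 of the 10 were called higher, beside 265 of all 21011 tested symbols. On the scaled values the median log2 fold change of the 10 was 0.59. HLA-F had 1.11, TAP1 1.06, HLA-B 0.89 and NLRC5, the class I counterpart of CIITA, 0.67. HLA-DRA, HLA-DRB1 and HLA-DPA1 had larger log2 fold changes than each of these 10, while CD74 and CIITA lay within their range. Both sets come from the same 6 libraries, and the difference between them was not tested.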

How the data were processed

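Total RNA of KMS27 cells was treated with DNase, depleted of ribosomal RNA and sequenced from both ends with a stranded kit, per the labels' protocols. The submitters' processing notes name kallisto 0.46.0, sleuth 0.30.0 and GRCh37, with no role or order. Whether quantification used the strand is not given in the sources used here. The authors deposited TPM for 215170 transcripts in 6 libraries and a table of p-values, q-values and effects (natural log, per the file headers and values) for 109487 transcripts, whose means are natural logs of estimated counts. TPM carries no depth. The depth of a library is unknown, and the spread over 3 libraries sets the precision. Estimated counts and counting errors quoted come from the means of the authors' deposited table, over those transcripts of a gene with statistics there.

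TPM was summed per symbol with the authors' annotation and divided by a median-of-ratios factor over 20101 symbols with a mean TPM of at least 1 that were above 0 in every library. Of 56638 symbols, 21011 with a mean TPM of at least 1 were tested two-sided by limma 3.58.1 (R 4.3.3) with an intensity trend, on log2 of scaled TPM with a pseudocount of 1. P-values were adjusted by Benjamini-Hochberg over all 21011, with a threshold of 0.05. The scripts were tested on simulated data and used Python 3.11.15, pandas 2.3.3, numpy 2.4.6 and matplotlib 3.10.9. Transcript types are those of the primary assembly annotation of GENCODE release 29, matched without version numbers. Copies on alternative haplotypes are not in it and have no type here.

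The genes and the lists were chosen with earlier results of these data known. Named in the text are all 10 genes, list genes past the threshold or at an end of their list, WWTR1, the 5 symbols most correlated with CD74, HLA-DRA and CIITA, and transcripts of at least 10% of a gene's TPM. Exceptions are stated where they occur. Some list genes that entered the counts are not reported here by name. The alternatives were TPM as deposited, upper-quartile scaling, a pseudocount of 0.1, no filter, a mean TPM of at least 5, values per gene ID, limma without trend, and leaving out each library.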

Additional observations from a re-analysis of the deposited data

How the results depend on the processing

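No paired analysis was possible because the control columns cannot be matched to numbered wild type samples and no label makes a number a shared batch. The 1790 called symbols (64.4% higher) became 3693 with TPM as deposited (7.18% higher), 755 without a filter (71.3% higher) and 892 without trend (57.8% higher). Upper-quartile scaling gave 1661 (54.2% higher). Leaving out 1 library gave 132 (without HA-TAZ 1) to 706 (without control c), with 5 libraries per fit. At an unadjusted p-value under 0.05, 6652 symbols differed. The 13 other pathway genes became 8 without a filter, 8 without trend and 1 (without HA-TAZ 1) to 6 (without control c) with a library left out. Fits on 5 libraries have fewer samples; for the other settings the cause was not tested.

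With TPM as deposited HLA-DQA1 turned to a log2 fold change of −0.18, and the other tested genes of the set kept their direction. Of the 43 other pathway genes 13 turned negative, among the called ones CTSD (−0.0053) and USF1 (−0.013). That setting gave 0.63 for CD74, 1.51 for HLA-DRA, 1.20 for HLA-DRB1, 1.10 for HLA-DPA1, 0.55 for HLA-DPB1, 0.15 for HLA-DMA and 0.56 for CIITA. A pseudocount of 0.1 gave 1.80 for HLA-DRB1, 1.58 for HLA-DPA1, 0.98 for HLA-DPB1 and 0.93 for CIITA. Across the 6 fits without 1 library, the ranges were 0.91 to 0.96 for CD74, 1.74 to 1.86 for HLA-DRA, 0.33 to 0.48 for HLA-DMA and 0.80 to 0.87 for CIITA. Per gene ID, CD74 (0.93) and CIITA (0.83) have a single value and the HLA genes have none.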
